A study of Mus musculus with 3 samples.

Results

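Genes were collected whose own probe sets gave unlike answers about the same germ layers. On an Affymetrix expression array a probe set is a group of short oligonucleotides against a transcript, and many genes are read by several. A gene was taken where at least 2 of its probe sets, each assigned to that gene alone, reached an intensity of 200 in at least 1 layer, and where the log2 difference between 2 layers, with intensities below 80 raised to 80, was unlike by 1.5 or more between 2 such bright probe sets. That difference between probe sets is called the gap below. There were 95 such genes among 3453 genes with 2 or more bright probe sets (2.75%), and 18193 genes in all had a probe set of their own. These genes were chosen by measured intensities, so their gaps and levels are a description without a test.

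The layers, endoderm, mesoderm and epiblast, came from E7.5 embryos of the ICR mouse strain (embryonic day 7.5). They were taken from the embryonic region after removal of Reichert's membrane, and the epiblast sample held both neuroectoderm and primitive streak. No mutation or treatment was part of the design. The layers were parted with digestive enzymes, a pipette and glass needles, and 100 ng of total RNA per layer was hybridised to 1 Mouse Genome 430 2.0 array. No source used here states the number of embryos behind each array, and with 1 array per layer no difference has a replicate check.

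Most multi-exon genes of the mouse give rise to several transcripts, through alternative promoters, cassette exons, splice sites and last exons or through the choice of the polyadenylation site. Probe sets of this array type lie mostly near the 3′ ends of transcripts, so the probe sets of a gene can address different last exons, different stretches of the same last exon or, in part, other sequences. In the gastrula the epiblast is an epithelium from which cells leave through the primitive streak, mesoderm is mesenchymal, and the endoderm layer holds absorptive visceral endoderm beside definitive endoderm.

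All 7 endoderm markers, all 7 mesoderm markers and all 6 epiblast markers checked were brightest in the layer of their name. The intensities of the endoderm markers summed to 48778 (endoderm), 449 (mesoderm) and 398 (epiblast). Those of the mesoderm markers summed to 1208 (endoderm), 10733 (mesoderm) and 1319 (epiblast), and those of the epiblast markers to 2133 (endoderm), 3106 (mesoderm) and 15550 (epiblast). Of the cells that the dissection could have carried along, 2 of 5 trophoblast markers were measured here and the brighter, Ascl2, read 152 (endoderm), 163 (mesoderm) and 187 (epiblast). All 3 decidual markers stayed at or below 93.1, and the 3 measured blood markers were below 80 in every layer. Over 45037 probe sets the arrays had a median intensity of 79.9 (endoderm), 79.9 (mesoderm) and 82.2 (epiblast), so the bound of 80 lay near the middle of each array. Each array read a whole layer, so a transcript used in fewer cells and a transcript less abundant per cell cannot be told apart.

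The gap of most genes was small. Its median was 0.26 over the 3453 genes with several bright probe sets, 788 of them had a gap of at least 0.5 and 229 a gap of at least 1. Among the 95 genes it had a median of 1.94 and ran from 1.504 to 4.70. The pooled SD of the log2 difference among bright probe sets of a gene was 0.29 for endoderm minus mesoderm, 0.30 for endoderm minus epiblast and 0.17 for mesoderm minus epiblast. These values are a spread between probe sets and not a replicate error.

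**Figure D1:**
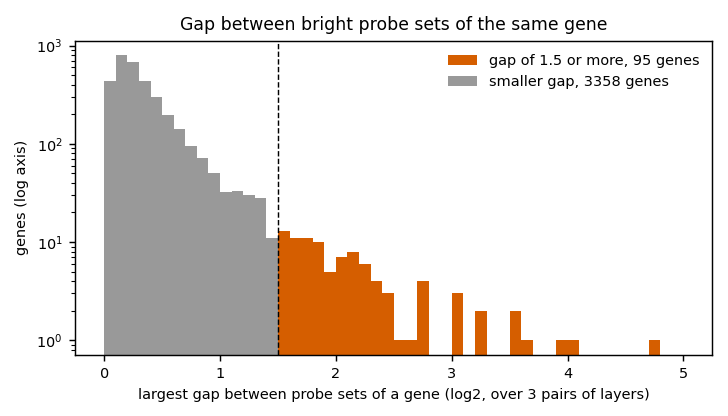
Number of genes (log axis) by the largest gap between their bright probe sets over the 3 pairs of layers (log2), from 1 array per layer. The dashed line is the limit of 1.5, with 95 genes at or beyond it (orange) and the rest of the 3453 below it (grey), and no break is seen in the distribution at the limit.

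Gaps were found most often where endoderm was in the comparison. They reached the limit in 73 genes for endoderm minus epiblast, in 63 for endoderm minus mesoderm and in 20 for mesoderm minus epiblast. In 59 genes they did so in 2 pairs of layers, in 35 in 1 pair and in 1, the bZIP transcription factor gene Maf, in all 3. The gap was widest for endoderm minus epiblast in 46 genes, for endoderm minus mesoderm in 41 and for mesoderm minus epiblast in 8. Each array enters 2 of the 3 pairs, so these counts are not independent of each other.

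For each gene, the bright probe set with the larger change in the widest pair is called the steeper one below, and the other extreme the flatter one. A probe set within 2-fold in the pair compared is called level. The steeper probe set was highest in endoderm for 73 genes, in mesoderm for 13 and in epiblast for 9. With the bound, the flatter probe set stayed within 2-fold in the widest pair in 55 genes. In the other 40 both changed by 2-fold or more in the same direction but by unequal amounts. In no gene, and in none of the 3453 (0 in all), was 1 probe set 2-fold higher and another 2-fold lower in the same pair. At the 2-fold level the probe sets thus differed in how much a gene varied and not in which way.

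The limit cuts a continuous distribution, so the genes on either side of it differed little in their gaps. Just inside stood Ptn, a heparin-binding growth factor, with a gap of 1.504, Dpp4, a cell surface peptidase, with 1.508, and Apoa1, the main protein of high-density lipoprotein, with 1.519. Just outside stood Col4a5, a basement membrane collagen chain, with 1.493, Six4, a homeobox factor, with 1.493 and Fam107b with 1.489. Ptn read 81.2 (endoderm), 340.3 (mesoderm) and 851 (epiblast) by its steeper probe set and 38.8 (endoderm), 122 (mesoderm) and 296 (epiblast) by its flatter, and without the lower bound these differed by only 0.46. Fam107b read 870.1 (endoderm), 249 (mesoderm) and 150.4 (epiblast) by its steepest probe set and 232 (endoderm), 127 (mesoderm) and 112 (epiblast) by its flattest.

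**Figure D2:**
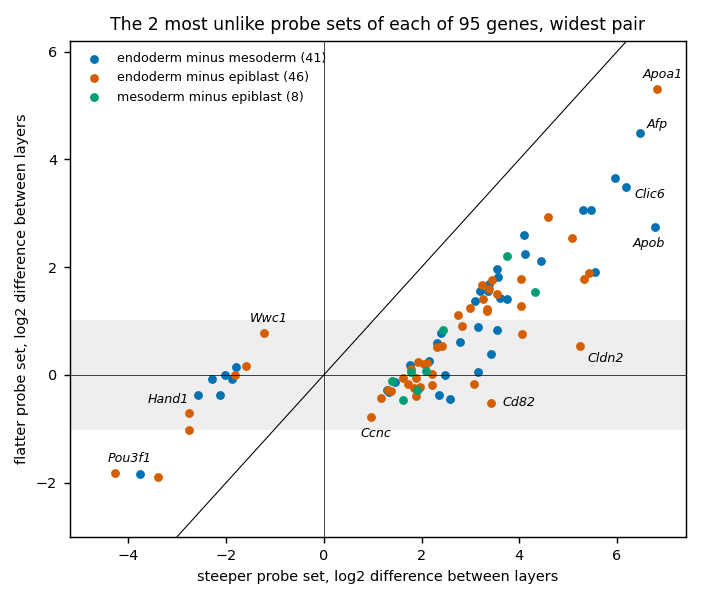
Log2 difference between layers by the steeper probe set (horizontal axis) and by the flatter probe set (vertical axis) of the 95 genes, each in its widest pair of layers, from 1 array per layer. The grey band marks changes within 2-fold and holds 55 genes, the black diagonal marks equal change, and no point lies beyond 2-fold in opposite directions.

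The nearest to opposite directions were Rffl, Wwc1 and Ccnc, the only 3 of the 3453 genes with probe sets apart by 1.5-fold or more each way, all of them in endoderm minus epiblast. Rffl, a ubiquitin ligase of endosomes, read 1407 (endoderm), 275 (mesoderm) and 387 (epiblast) by 1 probe set, which was 3.63-fold higher in endoderm against epiblast. By the other it read 237 (endoderm), 306 (mesoderm) and 374 (epiblast), or 1.58-fold lower in endoderm. Wwc1 (Kibra), a scaffold of the Hippo pathway, had 1 probe set at 88.5 (endoderm), 94.7 (mesoderm) and 207 (epiblast), which was 2.34-fold lower in endoderm than in epiblast. Its 2 other probe sets were higher in endoderm than in epiblast, with 729.9 (endoderm), 198 (mesoderm) and 424 (epiblast) for the brighter of them, a 1.72-fold difference. Ccnc, which encodes cyclin C of the Mediator kinase module, differed less: 1.95-fold higher in endoderm by a probe set at 219 (endoderm), 129 (mesoderm) and 112 (epiblast), and 1.72-fold lower by a probe set at 419 (endoderm), 544 (mesoderm) and 723 (epiblast).

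Brightness and steepness went together in these genes, but the rule used both. The steeper probe set was also the brighter in 81 of 95 (85.3%), against 1771 of the 3453 (51.3%). Most of the 3453 had a small gap (median 0.26), so nothing is read from this contrast. In the 95 genes the highest intensity of the steeper probe set had a median of 874, and that of the flatter a median of 298. Where the flatter probe set stayed within 2-fold, its median intensity stood at 248 (endoderm), 244 (mesoderm) and 261 (epiblast), and in 41 of these 55 genes it never reached 400. Intensities of different probe sets are not on a common scale of RNA, and with the bound a dim probe set has less room to differ. The part of dim signal in these gaps was not tested.

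**Figure D3:**
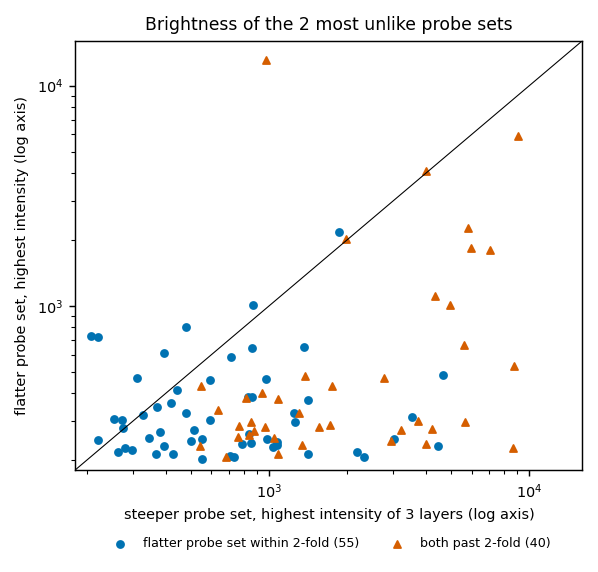
Highest intensity over the 3 layers of the steeper probe set (horizontal log axis) against that of the flatter (vertical log axis), 1 point per gene, with equal brightness as a diagonal. Most points lie below the diagonal (81 of 95), and the blue points, whose flatter probe set stayed within 2-fold, crowd at the lower edge with a median of 278 for the flatter probe set.

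In the group of 40 with unequal change, the bound of 80 took part in many gaps. In 24 of them the flatter probe set was below 80 in a layer of the widest pair and its fold is a minimum. With values as deposited and no lower bound, 15 of these 40 genes were under the limit of 1.5, against 2 of the 55 with a flatter probe set within 2-fold. Those 2, Lpl and Rasgrp2, had a flatter probe set within 2-fold only with the bound. Without it, these probe sets differed by -1.71 and 1.26 (log2, endoderm minus mesoderm). These 17 genes were Cer1, Gsn, Slc39a8, Nrk, Ctsc, Cdh11, Ctsb, Kitl, Lpl, Zbtb16, Rasgrp2, Gask1b, Chst15, Dsc2, Pvr, Dpp4 and Ptn. With the bound raised to 160 instead, 28 of the 95 were under the limit: Fgfr4, Acbd4, Marveld1, Dnajc22, Mapk8ip2, Amhr2, Gfra2, Lcorl, Fxyd2, Cldn9, Nid1, Asb1, Slc38a9, Ccnc, Txlng, Syt11, Fzd8, Lmna, Abcc5, Apoa4, Tgm2, Galm, Slc43a2, Tmem106a, Alg12, Tspan33, Slc4a4 and Apoa1. Other gaps remained past 1.5, and that of Tmprss2 was 4.48 without a bound. Over all 95 genes neither extreme touched the bound in 43.

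By role, 13 of the 95 genes were of cell junctions and adhesion, with a median gap of 2.01, and 10 of them had a probe set within 2-fold. They were Cldn2, Cd82, Epb41l5, Crb3, Epcam, Marveld1, Wwc1, Cdh11, Cldn9, Dsg2, Dsc2, Pvr and Tspan33. The groups by role were assigned after the genes were seen. Over all 95 genes, 55 (57.9%) had a flatter probe set within 2-fold. The steeper was highest in endoderm in 73 (76.8%) and in mesoderm in 13 (13.7%), and counts within groups stand beside these shares. Cldn2, a claudin that forms cation pores in tight junctions, had the largest gap of all (4.70, endoderm minus epiblast). Its steeper probe set read 3026 (endoderm), 114 (mesoderm) and 51.6 (epiblast), at least 37.8-fold higher in endoderm against epiblast. Its other probe set, designed from the same database sequence, read 249 (endoderm), 156 (mesoderm) and 171 (epiblast), a 1.45-fold difference. Both were highest in endoderm, but only the first told the layers widely apart.

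Cd82, a tetraspanin, had a gap of 3.94. It read 862 (endoderm), 62.4 (mesoderm) and 56.3 (epiblast) by the steeper probe set, at least 10.8-fold higher in endoderm against epiblast, and 269 (endoderm), 323 (mesoderm) and 384 (epiblast) by the flatter. The order of the layers was thus turned round, with epiblast highest by the flatter probe set, though by less than 2-fold. Epb41l5, a FERM domain protein that mouse gastrulation needs for the epithelial-mesenchymal transition and a gene in which the study examined alternative last exons, behaved in the same way (gap 3.04, endoderm minus mesoderm). The steeper probe set read 479 (endoderm), 49.8 (mesoderm) and 82.2 (epiblast), at least 5.99-fold higher in endoderm against mesoderm. The brightest read 585 (endoderm), 802 (mesoderm) and 612 (epiblast), and the remaining probe set 188 (endoderm), 252 (mesoderm) and 196 (epiblast). These 2 probe sets were both highest in mesoderm, with log2 differences of -0.46 and -0.42 for endoderm minus mesoderm, so the steeper probe set stood alone. Which last exon each of them reads was not determined here.

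Crb3, the Crumbs protein of the apical membrane, was read by 3 bright probe sets that formed a graded series (gap 3.03). They read 860.0 (endoderm), 31.7 (mesoderm) and 296 (epiblast), 660.4 (endoderm), 169 (mesoderm) and 304 (epiblast), and 646 (endoderm), 491 (mesoderm) and 603 (epiblast). The log2 difference for endoderm minus mesoderm was 3.43, 1.96 and 0.40 in that order, while endoderm and epiblast were alike within 2-fold only by the last. Epcam, the epithelial adhesion molecule, read 4438 (endoderm), 381 (mesoderm) and 3456 (epiblast) by its steeper probe set, which was 11.6-fold higher in endoderm against mesoderm and 9.06-fold lower in mesoderm than in epiblast. Its flatter probe set kept that order of the layers at 230.4 (endoderm), 129.5 (mesoderm) and 211 (epiblast), with only a 1.78-fold difference between endoderm and mesoderm.

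Dsg2, a desmosomal cadherin with 6 bright probe sets, was higher in endoderm by all of them, with log2 differences for endoderm minus epiblast from 0.52 to 2.31. The steepest read 969.5 (endoderm), 199 (mesoderm) and 195 (epiblast) and the flattest 466 (endoderm), 303 (mesoderm) and 325 (epiblast), while the brightest of the 6 read 4396 (endoderm), 1108 (mesoderm) and 1191 (epiblast). Dsc2, its desmosomal partner, had a gap of 1.64 and was under the limit without the lower bound. Cldn9, another claudin, read 344 (endoderm), 12.1 (mesoderm) and 43.0 (epiblast) by the steeper probe set and 251 (endoderm), 179 (mesoderm) and 215 (epiblast) by the flatter. The steeper was below 80 outside endoderm, and the gap of 1.88 was 0.88 with the bound at 160 and 2.77 without it. Cdh11, a cadherin of mesenchyme, was highest in mesoderm by both probe sets, 126 (endoderm), 1711 (mesoderm) and 454 (epiblast) and 16.1 (endoderm), 287 (mesoderm) and 59.8 (epiblast). Its gap of 1.92 for endoderm minus mesoderm rested on the bound, since the dimmer probe set was the steeper by 0.39 when values were used as deposited. Marveld1, the only gene of this group besides Cdh11 with a steeper probe set highest in mesoderm, read 81.3 (endoderm), 395 (mesoderm) and 242 (epiblast) and 201 (endoderm), 212 (mesoderm) and 229.8 (epiblast). Pvr and Tspan33 had gaps of 1.57 each, and that of Pvr was under the limit without the lower bound.

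**Figure D4:**
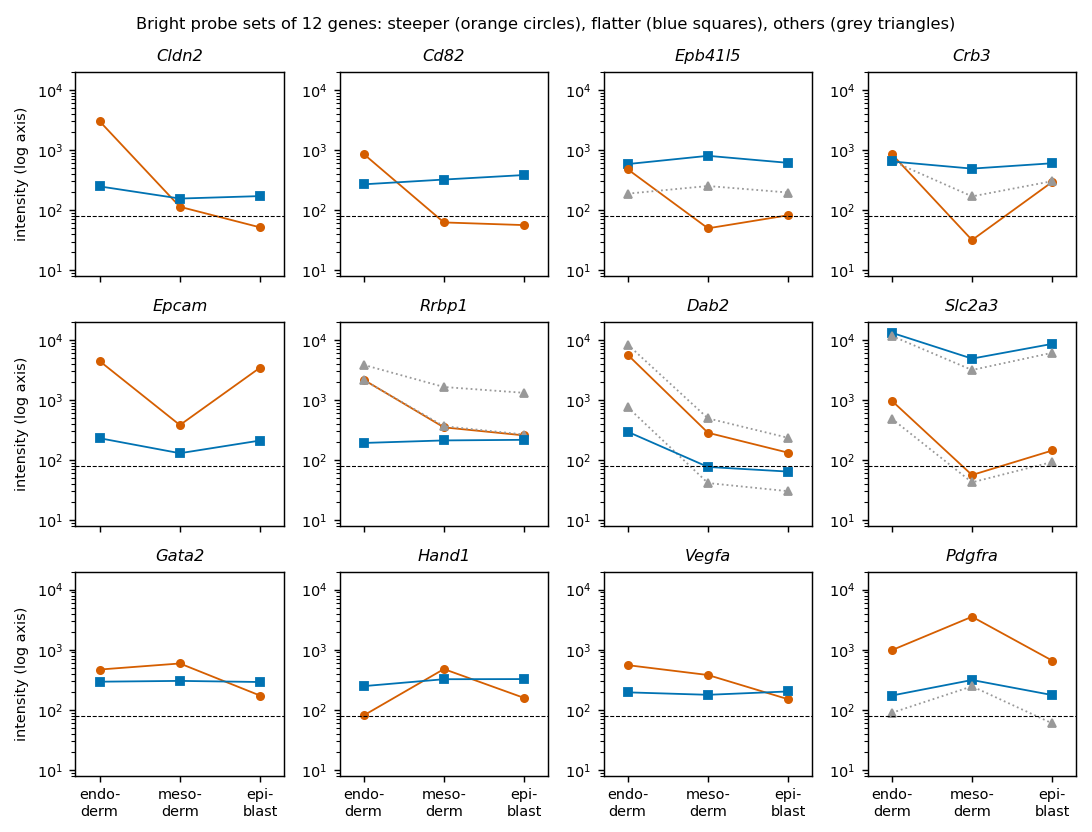
Intensity (log axis) in endoderm, mesoderm and epiblast of every bright probe set of 12 of the 95 genes, 1 array per layer, with the steeper probe set as orange circles, the flatter as blue squares, others as grey triangles and the bound of 80 as a dashed line. In Cldn2, Cd82, Epb41l5 and Gata2 a nearly level blue line stands beside a sloping orange line, and in Slc2a3 2 bright and 2 dimmer probe sets form separate pairs.

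Genes of endocytosis, the secretory pathway and the lysosome, a system for which the visceral endoderm is known, numbered 11 with a median gap of 2.04. In 10 of them the steeper probe set was highest in endoderm, against 73 of all 95 genes (76.8%), which was not tested. Dab2, the clathrin adaptor of the megalin and cubilin receptors, is named in the study for a skipped exon. Its 4 probe sets read 8359 (endoderm), 493 (mesoderm) and 234 (epiblast), 5643 (endoderm), 284 (mesoderm) and 132 (epiblast), 757 (endoderm), 41.3 (mesoderm) and 30.2 (epiblast), and 295 (endoderm), 76.5 (mesoderm) and 64.1 (epiblast). All 4 were highest in endoderm, and the gap of 3.53 lay between the second of them, 42.7-fold higher in endoderm against epiblast, and the last, at least 3.69-fold higher. Rrbp1, a ribosome-binding protein of the endoplasmic reticulum, had probe sets at 3 different slopes (gap 3.25). A pair of them read 2169 (endoderm), 349 (mesoderm) and 256 (epiblast), and 2139 (endoderm), 365 (mesoderm) and 265 (epiblast). The brightest read 3834 (endoderm), 1640.1 (mesoderm) and 1312 (epiblast), a log2 difference of 1.55 for endoderm minus epiblast, and the dimmest was level at 192 (endoderm), 212 (mesoderm) and 216 (epiblast).

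The cathepsin genes Ctsa, Ctsb and Ctsc, which encode lysosomal proteases, were all highest in endoderm by the steeper probe set. Ctsa read 2323 (endoderm), 563 (mesoderm) and 505 (epiblast) by the steeper and 180.4 (endoderm), 188 (mesoderm) and 207 (epiblast) by the flatter probe set, which was level. Ctsb was read as 6664 (endoderm), 1381 (mesoderm) and 1465 (epiblast), 3997 (endoderm), 388 (mesoderm) and 408 (epiblast), and 235 (endoderm), 56.2 (mesoderm) and 60.6 (epiblast). Its gap of 1.81 was 1.30 without the lower bound. Ctsc read 8636 (endoderm), 838 (mesoderm) and 743 (epiblast) against 226 (endoderm), 20.1 (mesoderm) and 8.17 (epiblast), and here the probe sets changed places without the bound, the dimmer being the steeper by 1.25. Myo6, the myosin that moves endocytic vesicles inward, read 1739 (endoderm), 51.8 (mesoderm) and 47.6 (epiblast) and 433 (endoderm), 100.5 (mesoderm) and 69.5 (epiblast). Syt11, a synaptotagmin of vesicle traffic, was the exception with its maximum in epiblast: 3 probe sets differed by -2.77 to -2.32 (log2, endoderm minus epiblast) and the other by -1.02. Tex2, Clcn7, Tmem106a and Rffl completed the group, each with a flatter probe set within 2-fold.

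Transporters and ion channels formed a group of 12 with a median gap of 2.05, in which unequal change (8 genes) was more common than a level probe set (4 genes). The steeper probe set was highest in endoderm in 11 of them, against 73 of all 95 genes (76.8%), which was not tested. Slc40a1 (ferroportin), the iron exporter, read 1307 (endoderm), 54.0 (mesoderm) and 74.0 (epiblast) and 327 (endoderm), 114 (mesoderm) and 134 (epiblast), a gap of 2.74. Slc39a8, a zinc and manganese importer, read 4238 (endoderm), 990.3 (mesoderm) and 259.8 (epiblast) and 274 (endoderm), 42.4 (mesoderm) and 21.4 (epiblast), but its gap of 2.25 was 0.35 without the lower bound. Atp1b1, the beta subunit of the sodium pump, had 4 bright probe sets, 1 of which stood apart from the others at 4016 (endoderm), 90.7 (mesoderm) and 221 (epiblast). The flattest of the 4 read 4075 (endoderm), 486 (mesoderm) and 795 (epiblast).

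Slc2a3 (GLUT3), a glucose transporter, was the clearest case of brightness that went the other way. Its bright pair read 13137 (endoderm), 4869.9 (mesoderm) and 8571 (epiblast), and 11637 (endoderm), 3146 (mesoderm) and 6096 (epiblast). The dimmer pair read 972 (endoderm), 56.2 (mesoderm) and 144 (epiblast), and 488 (endoderm), 42.4 (mesoderm) and 92.7 (epiblast). The gap of 2.17 for endoderm minus mesoderm lay between a 2.70-fold difference in the first of these and an at least 12.1-fold difference in the third. It was 2.68 without the bound. With the bound at 160 it was 1.17, and the gap for endoderm minus epiblast, 1.99, was the widest of the gene. Clic6, a chloride channel protein, read 5797 (endoderm), 44.9 (mesoderm) and 114 (epiblast) and 2261 (endoderm), 202 (mesoderm) and 251 (epiblast). Abcc5, an exporter of cyclic nucleotides with 6 bright probe sets, had log2 differences from -0.05 to 1.62 for endoderm minus epiblast, the largest from 369 (endoderm), 152 (mesoderm) and 121 (epiblast). Abca3, Slc31a2, Fxyd2, Slc38a9 and Slc43a2 all had their steeper probe set highest in endoderm, and Slc4a4 is taken up with the promoters below.

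Carriers of lipids, vitamins and hormones numbered 9 with a median gap of 2.18. Apob, Afp, Apoa1 and Apoa4, serum proteins that the visceral endoderm secretes, were far higher in endoderm by every bright probe set and differed only in how far. Apob read 8725 (endoderm), 50.5 (mesoderm) and 33.9 (epiblast), at least 109-fold higher in endoderm against mesoderm, and 535 (endoderm), 44.6 (mesoderm) and 56.0 (epiblast), at least 6.69-fold higher. Mesoderm and epiblast were below 80 by both, so the gap of 4.03 was set by the endoderm intensities and the bound. Without the bound the same probe sets differed by 3.85 for endoderm minus mesoderm, and the widest gap was 4.75. Afp ranged from at least 22.3-fold to at least 88.3-fold (endoderm over mesoderm) over 4 probe sets, the brightest of which read 7068 (endoderm), 21.2 (mesoderm) and 4.18 (epiblast). Apoa4 read 1976 (endoderm), 59.4 (mesoderm) and 82.1 (epiblast) and 2019 (endoderm), 228 (mesoderm) and 266 (epiblast). Its gap of 1.66 was 0.70 with the bound at 160, and without the bound its widest gap was 1.91. That of Apoa1, 1.52, was 0.62 with the bound at 160 and 2.49 without it.

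Tcn2, the vitamin B12 carrier transcobalamin, had 5 bright probe sets with log2 differences from 0.77 to 4.06 for endoderm minus epiblast. The steepest read 1853 (endoderm), 129 (mesoderm) and 111 (epiblast) and the flattest 2157 (endoderm), 996 (mesoderm) and 1268 (epiblast), both highest in endoderm. Igfbp5, a binding protein of insulin-like growth factors, read 1032 (endoderm), 117 (mesoderm) and 168 (epiblast) against a level 177 (endoderm), 171 (mesoderm) and 229 (epiblast). Lpl, lipoprotein lipase, was highest in epiblast by both of its probe sets, 63.8 (endoderm), 350.5 (mesoderm) and 704 (epiblast) and 31.6 (endoderm), 103 (mesoderm) and 208 (epiblast). Acbd4 and Stc2 were highest in endoderm by the steeper probe set.

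Ligands and receptors made up 9 genes with a median gap of 1.94, and 4 of them had their steeper probe set highest in mesoderm. Cer1, a secreted antagonist of Nodal and BMP made by anterior endoderm, read 4344 (endoderm), 1606 (mesoderm) and 50.4 (epiblast) and 1106 (endoderm), 232 (mesoderm) and 20.2 (epiblast), both designed from the same database sequence. Its gap of 2.79 for mesoderm minus epiblast, the widest of that pair of layers, was 1.47 without the lower bound, since both were below 80 in epiblast. Kitl, the ligand of the Kit receptor, was read as 2944 (endoderm), 605 (mesoderm) and 283 (epiblast) by its brightest probe set and 243 (endoderm), 67.8 (mesoderm) and 48.1 (epiblast) by the dimmest of 4. Its gap of 1.78 was 1.04 without the lower bound. Vegfa, the growth factor of the early vasculature, read 554 (endoderm), 379.6 (mesoderm) and 149.8 (epiblast) by the steeper probe set, 3.70-fold higher in endoderm against epiblast, and 195 (endoderm), 178 (mesoderm) and 202 (epiblast) by a level one.

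Pdgfra, a receptor of early mesoderm and a gene named by the study, was highest in mesoderm by all 3 bright probe sets. They read 982 (endoderm), 3545 (mesoderm) and 658 (epiblast), 173 (endoderm), 314 (mesoderm) and 176 (epiblast), and 89.0 (endoderm), 246 (mesoderm) and 59.3 (epiblast). The fold of mesoderm over epiblast was 5.39 by the brightest and 1.78 by the second, a gap of 1.60. Fgfr4, an FGF receptor, read 296 (endoderm), 50.7 (mesoderm) and 45.0 (epiblast) and, by a level probe set, 169 (endoderm), 194 (mesoderm) and 222 (epiblast). Fzd8, a Wnt receptor, read 500.3 (endoderm), 119 (mesoderm) and 132 (epiblast) and 243 (endoderm), 166 (mesoderm) and 205 (epiblast). Endoderm was highest by the steeper probe set of both receptors, and the other probe set of each was level. Apcdd1, an inhibitor of Wnt signals at the cell surface, was highest in mesoderm by all 5 bright probe sets, from 315 (endoderm), 1256 (mesoderm) and 297 (epiblast) for the steepest to 198 (endoderm), 298 (mesoderm) and 284 (epiblast) for the flattest. Amhr2 and Gfra2, receptors for anti-Müllerian hormone and for GDNF family ligands, each had a steeper probe set highest in mesoderm beside a level one.

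Of the 10 transcription factor genes (median gap 1.82), 5 had their steeper probe set highest in endoderm, 4 in mesoderm and 1 in epiblast. Maf had the largest gap of the group, 3.55, between probe sets at 3202 (endoderm), 236 (mesoderm) and 52.4 (epiblast), and at 273 (endoderm), 20.0 (mesoderm) and 6.99 (epiblast). Without the lower bound these 2 differed by 0.65, and the third, at 885 (endoderm), 209.6 (mesoderm) and 216 (epiblast), was the flattest. Pou3f1 (Oct6), a factor of the epiblast and neuroectoderm, read 34.5 (endoderm), 125 (mesoderm) and 1558 (epiblast) and 78.7 (endoderm), 81.0 (mesoderm) and 282 (epiblast). Both were highest in epiblast, at least 19.5-fold over endoderm by the first and at least 3.52-fold by the second. Hand1, a factor of lateral and extra-embryonic mesoderm, read 80.5 (endoderm), 477 (mesoderm) and 157 (epiblast) by the steeper probe set, 5.92-fold lower in endoderm than in mesoderm. By the other, designed from the same database sequence, it read 248 (endoderm), 323 (mesoderm) and 325 (epiblast), within 2-fold over all layers. The gap of 2.18 was the same without the bound. With the bound at 160 it was 1.19, and that for mesoderm minus epiblast, 1.58, was the widest of the gene.

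Gata2, a factor of blood and endothelial precursors, read 468 (endoderm), 591 (mesoderm) and 172 (epiblast) by the steeper probe set, which was 3.43-fold higher in mesoderm than in epiblast. The other, 294 (endoderm), 303 (mesoderm) and 290.2 (epiblast), was level over the layers. Gata6, a factor of endoderm and cardiac mesoderm, was highest in mesoderm by both, 645 (endoderm), 1079 (mesoderm) and 63.9 (epiblast) and 234 (endoderm), 377 (mesoderm) and 81.4 (epiblast). Bach2, a repressor best known from B cells, had a pair of probe sets highest in mesoderm, the brighter at 155 (endoderm), 380.3 (mesoderm) and 124 (epiblast), and another at 257 (endoderm), 193 (mesoderm) and 266 (epiblast). Lcorl, Zbtb16, Tfcp2l1 and Zfp703 were highest in endoderm by the steeper probe set, with gaps of 1.89, 1.75, 1.69 and 1.57 in that order.

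**Figure D5:**
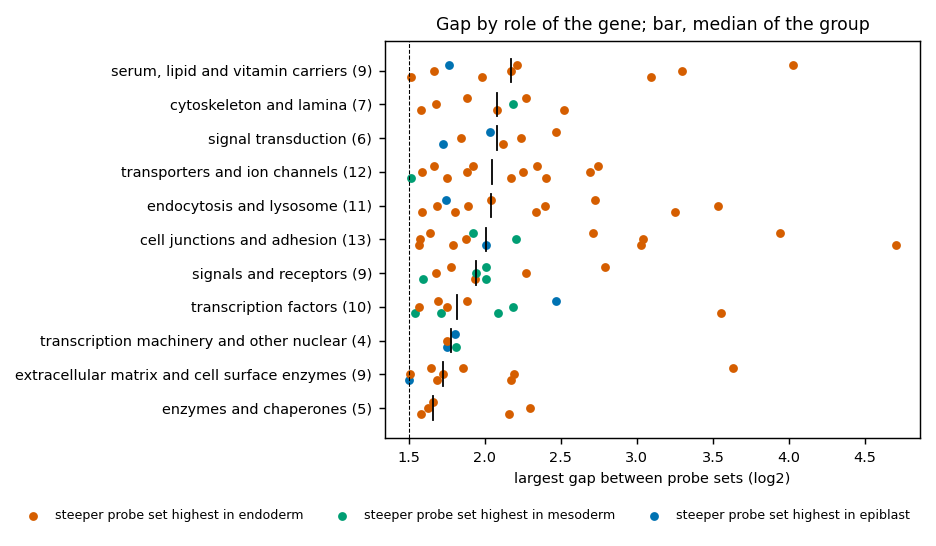
Largest gap between bright probe sets (log2) of the 95 genes in 11 groups by role, 1 point per gene, coloured by the layer in which the steeper probe set was highest, with the number of genes in brackets and the median as a bar. Endoderm colours most of the points in 9 of the groups, and mesoderm colours 4 points each among transcription factors and among signals and receptors.

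Genes of the cytoskeleton and the nuclear lamina numbered 7 with a median gap of 2.08. Gsn, the actin-severing protein gelsolin, had 5 bright probe sets that were all at least 5.85-fold higher in endoderm against epiblast, from 2772 (endoderm), 83.4 (mesoderm) and 82.4 (epiblast) to 468 (endoderm), 22.8 (mesoderm) and 21.2 (epiblast). Its gap of 2.52 between these was 0.61 without the lower bound. Cotl1, an actin-binding protein, had 6 bright probe sets, of which 5 gave log2 differences from 3.67 to 4.12 for endoderm minus mesoderm and the sixth 2.24. That sixth read 1823 (endoderm), 387 (mesoderm) and 473 (epiblast), and the brightest 5975 (endoderm), 344 (mesoderm) and 464 (epiblast). Lima1 likewise had 3 probe sets from 3.04 to 3.16 and another at 0.89. Actn1, an actin cross-linker, read 4674 (endoderm), 2847 (mesoderm) and 2093 (epiblast) by its brightest probe set and 353 (endoderm), 482 (mesoderm) and 473 (epiblast) by the one that was slightly higher in mesoderm. Sh3pxd2a, a scaffold of podosomes, read 297 (endoderm), 838 (mesoderm) and 222 (epiblast) and 224 (endoderm), 216 (mesoderm) and 261 (epiblast), and Dnmbp was highest in endoderm by the steeper probe set. Lmna, which encodes lamins A and C, read 274 (endoderm), 85.3 (mesoderm) and 67.0 (epiblast) against a level 278 (endoderm), 238 (mesoderm) and 259 (epiblast). Its gap of 1.68 was 0.68 with the bound at 160 and 1.93 without it.

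Matrix and cell surface enzymes numbered 9 with a median gap of 1.72, and 7 of them had probe sets of unequal change. Tmprss2, a membrane serine protease, had 2 probe sets at 3740.2 (endoderm), 33.8 (mesoderm) and 55.6 (epiblast), and at 2538 (endoderm), 41.3 (mesoderm) and 55.9 (epiblast). The third, at 301 (endoderm), 60.7 (mesoderm) and 66.8 (epiblast), had the same order and a gap of 3.64 to the first. Nid1, which links laminin to collagen IV in basement membranes, read 768 (endoderm), 315 (mesoderm) and 73.8 (epiblast) and 286 (endoderm), 174 (mesoderm) and 108 (epiblast). Both put endoderm first and epiblast last. Fbln1, a matrix glycoprotein, had 2 probe sets that were higher in endoderm than in epiblast, the brighter at 1251 (endoderm), 825 (mesoderm) and 322 (epiblast), and a level one at 282 (endoderm), 303 (mesoderm) and 327 (epiblast). Dpp4 read 1367 (endoderm), 49.1 (mesoderm) and 46.2 (epiblast) and 481 (endoderm), 11.2 (mesoderm) and 18.9 (epiblast), and without the bound its dimmer probe set was the steeper by 0.62. Sulf2, an enzyme that edits heparan sulphate, had its steeper probe set at 833 (endoderm), 218 (mesoderm) and 181 (epiblast), a brighter one at 3883 (endoderm), 1361 (mesoderm) and 1167 (epiblast), and a level one at 321 (endoderm), 385 (mesoderm) and 296 (epiblast). Gask1b, Chst15 and Tgm2 were highest in endoderm by the steeper probe set.

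The remaining genes acted in signal transduction (6 genes, median gap 2.08), in the nucleus (4 genes, 1.78) or as enzymes and chaperones (5 genes, 1.66). The first were Wnk2, Nrk, Sh3bp5, Mapk8ip2, Asb1 and Rasgrp2, the second Taf1d, Ints6, Ccnc and Txlng and the third Car7, Dnajc22, Ahcyl2, Galm and Alg12. Sh3bp5, a regulator of Rab11, read 1045 (endoderm), 563 (mesoderm) and 103 (epiblast) and 249.8 (endoderm), 171 (mesoderm) and 107 (epiblast) by probe sets of the same database sequence. The first was 10.1-fold higher in endoderm against epiblast and the second 2.33-fold. Mapk8ip2, a scaffold of the JNK pathway, was 6.75-fold lower in endoderm than in epiblast by a probe set at 87.8 (endoderm), 206 (mesoderm) and 592 (epiblast), and less than 2-fold lower by one at 281 (endoderm), 295 (mesoderm) and 461 (epiblast). Ints6, a subunit of the Integrator complex, had 1 probe set at 247 (endoderm), 634 (mesoderm) and 867 (epiblast), beside a brighter level one at 1001 (endoderm), 937 (mesoderm) and 1004 (epiblast). Taf1d, a factor of RNA polymerase I, had 5 bright probe sets, of which 4 were within 2-fold for endoderm minus mesoderm and the fifth, at 369.8 (endoderm), 1359 (mesoderm) and 1118 (epiblast), was 3.67-fold lower in endoderm. Car7, a carbonic anhydrase, was at least 12.5-fold higher in endoderm against mesoderm by all 3 probe sets, with 4946 (endoderm), 73.2 (mesoderm) and 81.0 (epiblast) for the brightest and 1004 (endoderm), 47.1 (mesoderm) and 48.8 (epiblast) for the flattest.

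Where a gene had 3 or more bright probe sets it could be asked whether 1 of them stood alone. This held in 24 of 37 such genes, where 1 probe set lay at least 1 (log2) from the nearest of the others in the widest pair and the others lay within 1 of each other. It was the flatter probe set in Tmprss2, Lima1, Sulf2, Fbln1, Kitl and Cotl1, and the steeper in Epb41l5, Maf, Atp1b1, Ctsb, Nrk and Car7, among others. With no lower bound, an alternative chosen after the data were seen, the same probe set stood alone in 18 of the 24, and no longer in Maf, Nrk, Afp, Kitl, Pvr and Apoa1. The genes were chosen for a wide gap, so these counts say nothing of other genes. The share of genes that were among the 95 was 58 of 2270 (2.56%) with 2 bright probe sets, 18 of 788 (2.28%) with 3 and 19 of 395 (4.81%) with 4 or more.

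The identifier of a probe set tells of its design. The ending _a_at marks probes shared by alternative transcripts of a gene, _s_at probes shared by several transcripts that may belong to different genes, and _x_at probes of which some resemble other sequences. Of 257 bright probe sets of the 95 genes, 18.7% ended in _x_at, against 11.6% of the 8667 bright probe sets of all 3453 genes. The shares were 7.78% against 10.4% for _s_at, 16.0% against 17.7% for _a_at and 57.6% against 60.3% for the plain ending. Among the extremes that made the gaps, 13 of 95 steeper (13.7%) and 12 of 95 flatter probe sets (12.6%) ended in _x_at. These shares were near the 11.6% of all bright probe sets. The 2 extremes were designed from the same database sequence in 22 of the 79 genes where both sequences are given (27.8%), against 1108 of 2860 genes (38.7%). Such pairs were those of Cldn2, Cer1, Hand1, Slc40a1, Slc39a8, Nid1, Sh3bp5 and Gata6, among others.

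By number of probe sets the 95 genes were weighted towards endoderm. Of their 257 bright probe sets, 149 (58.0%) were 2-fold or more higher in endoderm than mesoderm, against a background of 10.9% of the 8667, and 20 (7.78%) were lower, against 4.04%. For endoderm against epiblast 151 (58.8%) were higher, against 13.6%, and 17 (6.61%) lower, against 3.3%. For mesoderm against epiblast 33 (12.8%) were higher, against 3.31%, and 27 (10.5%) lower, against 2.12%. The rule used these contrasts, since a probe set has to differ between layers for a gap to arise, so nothing is read from the excess. Of the 531 genes with a bright probe set that differed by 1.5 or more (log2) in some pair, 87 (16.4%) were among the 95.

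A choice of probe set would have changed the call of many genes, also outside the 95. For endoderm minus mesoderm, 661 of the 3453 genes had at least 1 bright probe set past 2-fold, and in 253 of them (38.3%) another bright probe set was not. The counts were 310 of 762 genes (40.7%) for endoderm minus epiblast and 112 of 255 (43.9%) for mesoderm minus epiblast. The layer of the highest intensity differed between bright probe sets in 30 of the 95 genes (31.6%), a share like that of all 3453 genes (973, 28.2%). In all 30 the flatter probe set was within 2-fold.

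Beside all genes, the 95 had a like share with several annotated transcripts. Where start windows were at hand, they had a higher share with several annotated starts, and neither difference was tested. All 95 genes were found in RefSeq, and 49 of them (51.6%) had 2 or more curated transcripts, against 1836 of 3449 genes (53.2%). Start windows of RefSeq were at hand for 67 of the 95 (70.5%), a smaller share than the 2813 of all 3453 genes (81.5%). There were 2 or more in 24 of the 67 (35.8%), against 615 of 2813 genes (21.9%). Starts lay more than 1000 bases apart in 14 of the 67 (20.9%), against 317 (11.3%). The 14 genes were Cd82, Dab2, Rffl, Gsn, Car7, Sh3bp5, Dnmbp, Vegfa, Rasgrp2, Gata2, Clcn7, Lmna, Ahcyl2 and Slc4a4. Which start gives rise to the RNA read by which probe set cannot be told from these arrays.

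Slc4a4, Gata2 and Dab2 are shown, chosen after their values were seen, because they are among these 14 genes, because their probe sets differed in these layers and because alternative promoters were a theme of the study. Slc4a4, a sodium bicarbonate cotransporter, read 229 (endoderm), 309.6 (mesoderm) and 117 (epiblast) by the steeper probe set, 2.64-fold higher in mesoderm than in epiblast, and 447 (endoderm), 430.4 (mesoderm) and 468 (epiblast) by the other, which was level (gap 1.52). The 100 bases before each start are printed 5′ to 3′ with CG dinucleotides in capitals, as given by RefSeq for build GRCm38.p6, all on the plus strand. The start windows were chr5:88887160-88887259 and chr5:89027866-89027965 for Slc4a4, chr6:88193791-88193890 and chr6:88198564-88198663 for Gata2, and chr15:6299689-6299788 and chr15:6386648-6386747 for Dab2.
Slc4a4 start 1: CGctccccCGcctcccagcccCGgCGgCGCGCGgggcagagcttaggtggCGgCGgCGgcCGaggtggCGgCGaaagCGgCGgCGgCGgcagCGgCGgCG
Slc4a4 start 2: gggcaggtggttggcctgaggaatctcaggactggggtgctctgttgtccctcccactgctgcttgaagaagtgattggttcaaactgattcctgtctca
Gata2 start 1: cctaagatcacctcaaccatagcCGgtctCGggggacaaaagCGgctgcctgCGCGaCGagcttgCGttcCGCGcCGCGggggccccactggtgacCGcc
Gata2 start 2: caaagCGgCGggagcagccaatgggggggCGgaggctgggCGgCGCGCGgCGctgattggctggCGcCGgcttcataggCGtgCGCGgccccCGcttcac
Dab2 start 1: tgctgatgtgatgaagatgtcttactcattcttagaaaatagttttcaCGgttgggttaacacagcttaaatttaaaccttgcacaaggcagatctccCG
Dab2 start 2: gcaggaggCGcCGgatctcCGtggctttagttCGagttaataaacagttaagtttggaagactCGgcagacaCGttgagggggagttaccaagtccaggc

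The starts of Slc4a4 lay 140706 bases apart, with 20 CG dinucleotides in the window of the first and 0 in that of the second. Gata2 had 12 and 14 in windows 4773 bases apart, and Dab2 had 2 and 6 in windows 86959 bases apart. Over all 32851 such windows of 27025 genes the median was 3 (quartiles 1 and 8), 20.7% held none and 12.1% held 12 or more. The pair of Slc4a4 thus came from opposite ends of that range, and both windows of Gata2 from its upper end.

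Gene lists set the 95 genes in the biology of the gastrula, as a description by counts and by the median gap, which was 0.26 over all 3453 genes. The 95 were 2.75% of the 3453 genes, and 35 of them were among the 377 listed genes with several bright probe sets. Of 15 genes of visceral endoderm with several bright probe sets, 7 were among the 95 (Afp, Apoa1, Apoa4, Apob, Dab2, Dpp4 and Gata6), with a median gap of 1.43. The counts were 2 of 4 for definitive endoderm (Cer1 and Epcam), 1 of 6 for nascent and paraxial mesoderm (Pdgfra), 1 of 8 for lateral and cardiac mesoderm (Hand1), 1 of 3 for haemato-endothelial genes (Gata2) and 1 of 6 for pluripotency and epiblast genes (Pou3f1). Neither the 4 primitive streak genes nor the 4 neuroectoderm genes had a member among them. A large gap needs a probe set that varies between layers, and the rule used these differences, so nothing is read from these counts.

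Among processes, the lists gave 5 of 19 epithelial junction genes (median gap 0.35), 6 of 26 transporters (0.49), 4 of 21 genes of FGF and other receptor tyrosine kinase signals (0.43), 3 of 32 mesenchymal and matrix genes (0.54), 3 of 29 trafficking and lysosome genes (0.31), 3 of 52 cytoskeletal genes (0.31) and 1 of 17 Wnt pathway genes (0.35). There were 0 of 16 TGF-beta and BMP pathway genes, 0 of 10 of the Hedgehog, Notch and retinoic acid pathways, 0 of 9 guidance genes, 0 of 35 chromatin genes, 0 of 10 imprinted or noncoding genes and 0 of 26 metabolic and stress genes. The list of 41 splicing regulators also had 0, with a median gap of 0.35 and a largest gap of 0.93. The gaps of these regulators were thus all below 1, with a median slightly above that of all genes. Beside a share of 2.75% over all 3453 genes, nothing is read from a count of 0 in lists this small. Of the study's dissection markers 2 had several bright probe sets and 0 were among the 95, and the list of trophoblast, decidua and blood genes had 0 with several.

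Of the genes that the study named for splicing or promoter events, 10 had several bright probe sets and 3 of them, Dab2, Epb41l5 and Pdgfra, were among the 95. The median gap of the 10 was 0.50. The other 7 lay under the limit, at 0.74 for Smad2, 0.52 for Uhrf1, 0.47 for Ubtf, 0.37 for Nf2, 0.32 for Grsf1, 0.18 for Fgfr1 and 0.13 for Rac1. A small gap says only that these probe sets gave like answers.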

How the data were processed

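The authors extracted total RNA from the dissected layers, hybridised it to Affymetrix arrays and read these with the manufacturer's software. They computed expression values with Robust Multiarray Average (RMA) and the affy package. The deposited series holds 1 array per layer. The deposited table holds intensities on a linear scale, not the log2 values that RMA usually returns, and no source used here states which later step gave this form. No step was added to the normalization. The authors' test, Significance Analysis of Microarrays, needs replicates and was not run, so no p-values are given, and the single arrays limit the precision. Detection calls were not used.

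Gene names came from the platform annotation: 34945 probe sets had 1 gene symbol, 932 several and 9160 none, and only the first were used. Intensities below 80 were raised to 80, converted to log2 and subtracted between layers (pandas 2.3.3, numpy 2.4.6). A fold against a value below 80 is given as a minimum. The script was checked on simulated data. The 95 genes and the 25 lists (1019 genes) were chosen with earlier results of these data known, and the role groups were assigned after the genes were seen. Named genes were the 8 with the largest gap in each pair of layers, up to 4 per list, 3 on each side of the limit and the 5 with the most bright probe sets, 46 of the 95 in all. Others were named after their values were seen. Alternatives covered the bound, the normalization (limma 3.58.1), the brightness, the limit and the probe set design.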

Additional observations from a re-analysis of the deposited data

How the results depend on the processing

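No paired analysis was possible because each layer had 1 array. The count of 95 genes was 97, 87 and 105 with the bound at 40, at 160 and without any bound, with 82, 67 and 78 of the 95 kept, and 93, 97 and 97 after median centring, quantile normalization and cyclic loess, with 92, 89 and 91 kept. It depended on the thresholds. A minimum brightness of 100 gave 241 of 4952 genes (4.87%). Of these, 161 were for endoderm minus mesoderm, 170 for endoderm minus epiblast and 54 for mesoderm minus epiblast, and 101 had maxima in different layers. A minimum of 400 gave 29 of 2212 genes (1.31%), or 20, 26, 3 and 3 in the same order. A limit of 1 gave 229 genes (154, 181, 44 and 84) and a limit of 2 gave 45 (33, 32, 5 and 17). Without probe sets ending in _x_at or _s_at there were 61 of 2546 genes (2.40%), with 37 for endoderm minus mesoderm and 48 for endoderm minus epiblast. With only probe sets at 80 or more on all arrays there were 43 of 3282 genes (1.31%), with 26, 27 and 12 by pair. The share in the main setting was 2.75%. With the bound at 160, 19 genes had maxima in different layers, and with no bound mesoderm minus epiblast had 32 genes. Fewer or more probe sets enter by construction under these thresholds, and the cause of the other shifts was not tested. No setting gave a gene with 2-fold changes in opposite directions (0 in all). For the 46 genes named by rule, the difference between the same 2 probe sets in the same pair of layers was followed. It was below 1.5 in 10 genes without the bound, in 7 with it at 40 and in 9 with it at 160. After median centring it was so in 2, and after quantile normalization and cyclic loess in 1 each. Some of these genes still reached the limit by another pair of layers or of probe sets. Examples were Maf without the bound (widest gap 3.90) and Hand1 (1.58) and Slc2a3 (1.99) at 160. Without the bound the difference between the same probe sets changed sign in Ctsc (-1.25), Cdh11 (-0.39) and Dpp4 (-0.62).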

Other observations

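Beside their 257 bright probe sets, the 95 genes had 77 dim ones, in 47 genes, that never reached an intensity of 200 and were not part of the choice. Of these, 40 were below 80 in every layer. With the bound of 80 a probe set under 200 can differ by at most 2.5-fold, so few could pass 2-fold. There were 5 of 77 (6.49%), against 38 of 2693 dim probe sets of the other genes (1.41%). Without the bound, an alternative chosen after the data were seen, there were 20 of 77 (26.0%), against 208 of 2693 (7.72%), and all 20 were highest in the same layer as the steeper probe set of their gene. Neither difference was tested. The rule took genes with a bright probe set that differed widely between layers, which most of the other genes lacked. An excess and a shared layer can follow from that choice, so nothing is read from them. Each of the 5 was also highest in the same layer as the steeper probe set of its gene. They were a probe set of Maf at 179 (endoderm), 20.8 (mesoderm) and 17.4 (epiblast), of Slc38a9 at 185 (endoderm), 35.5 (mesoderm) and 36.4 (epiblast), of Abcc5 at 173 (endoderm), 74.2 (mesoderm) and 48.9 (epiblast), of Ctsb at 161 (endoderm), 45.9 (mesoderm) and 50.9 (epiblast), and of Gfra2 at 42.0 (endoderm), 169.7 (mesoderm) and 50.8 (epiblast).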
